A study of Mus musculus with 6 samples.

Results

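Transcription factor genes that set or oppose the fate of the granulosa cell, the steroid-producing cell around the oocyte, were examined for H3K27me3. The set was fixed by name and held 10 genes of the 26220 mouse genes with a curated RefSeq transcript: Foxl2, Foxo1, Foxo3, Gata4, Gata6, Wt1, Cebpa, Cebpb, Sox9 and Dmrt1. Each was looked up in all 8 gene lists that the authors deposited. H3K27me3, trimethylation of lysine 27 on histone H3, was mapped by chromatin immunoprecipitation and sequencing (ChIP-seq) in cultured granulosa cells of wild-type C57BL/6J mice aged 8 to 9 weeks. Of 6 samples, 3 received no agent (control) and 3 received 25 nM dihydrotestosterone (DHT, an androgen that cannot be aromatized) for 24 h. Cells of many mice (30 per the labels, another number in the study's methods) were collected and plated in 1 dish per sample, so that the dishes are not known to be separate animals.

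The files hold 1 pooled peak list per group and lists of gene symbols, without a value per sample. Replicate error could therefore not be estimated for any difference between control and DHT, the depth of each library is unknown, and no test was made. A gene in a gene body list has at least 1 called peak (q-value of 0.05 or less) between its ends, and a gene in a promoter list has one within 1 kb of its start site. Gene expression enters only as lists of genes that rose or fell after DHT, so whether these cultures expressed granulosa cell markers could not be read from the files.

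Granulosa cells and the Sertoli cells of the testis come from the same supporting cell lineage of the early gonad. FOXL2 maintains the granulosa cell identity, while SOX9 and DMRT1 drive and keep the Sertoli cell identity. WT1, GATA4 and GATA6 act in the gonads of both sexes. FOXO1 and FOXO3 are forkhead factors held in check by PI3K and Akt, FOXO1 in granulosa cells and FOXO3 best known for keeping primordial follicles dormant. C/EBPα and C/EBPβ act in the response of the granulosa cell to luteinizing hormone. H3K27me3 is laid down by Polycomb repressive complex 2 and is associated with silent genes.

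Dmrt1 was the only member with a peak. It was in the control gene body list and not in the DHT gene body list. The other 9 members were in neither list. Thus 1 of 10 members was listed in control, where 11.9% of all genes were, and 0 of 10 after DHT, where 4.36% of all genes were. With 10 genes, these counts are close to the shares of all genes and show nothing particular to the members.

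None of the 10 members was in a promoter list of either group. The control promoter list held 0.603% of all genes and the DHT promoter list 0.206%. Likewise 0 members were among the upregulated or the downregulated genes with a gene body peak, which made up 0.0839% and 0.0572% of all genes. Of the genes linked to an enhancer, the upregulated list took 0.233% of all genes and the downregulated list 0.126%, again without a member.

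Since a gene can only be listed where a peak falls between its ends, the length of each member was set beside its listing. Foxl2, at 2.52 kb, Cebpa, at 2.64 kb, and Cebpb, at 1.52 kb, are short genes. Among all genes within 2-fold of their lengths, 0.813%, 0.813% and 0.412% were in the control list, and the DHT list held under 0.1% in each case (0.0508%, 0.0985% and 0.0549%). Sox9 spans 5.55 kb, and 1.68% of genes near that length were listed in control and 0.514% after DHT. For these 4 genes, the absence from both lists is what most genes of their length showed.

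The other 6 members are longer. For Gata6 (33.1 kb) and Wt1 (47.1 kb), 11.7% and 16.7% of the genes of like length were listed in control, and 3.37% and 4.73% after DHT. For Gata4 (72.8 kb), Foxo1 (81.8 kb) and Foxo3 (94.9 kb), the control shares were 25.5%, 28.7% and 32.6%, and the DHT shares 7.97%, 9.17% and 10.6%. None of these 5 genes was in either list, which is also what most genes of their length showed.

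Dmrt1 is the longest member, with 98.7 kb on chromosome 19. Of 4243 genes within 2-fold of that length, 1434 (33.8%) were listed in control and 465 (11%) after DHT. The member nearest to it in length, Foxo3, was not listed. Peak calls are present or absent, so these counts do not say by how much the signal at the genes differed.

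**Figure D1:**
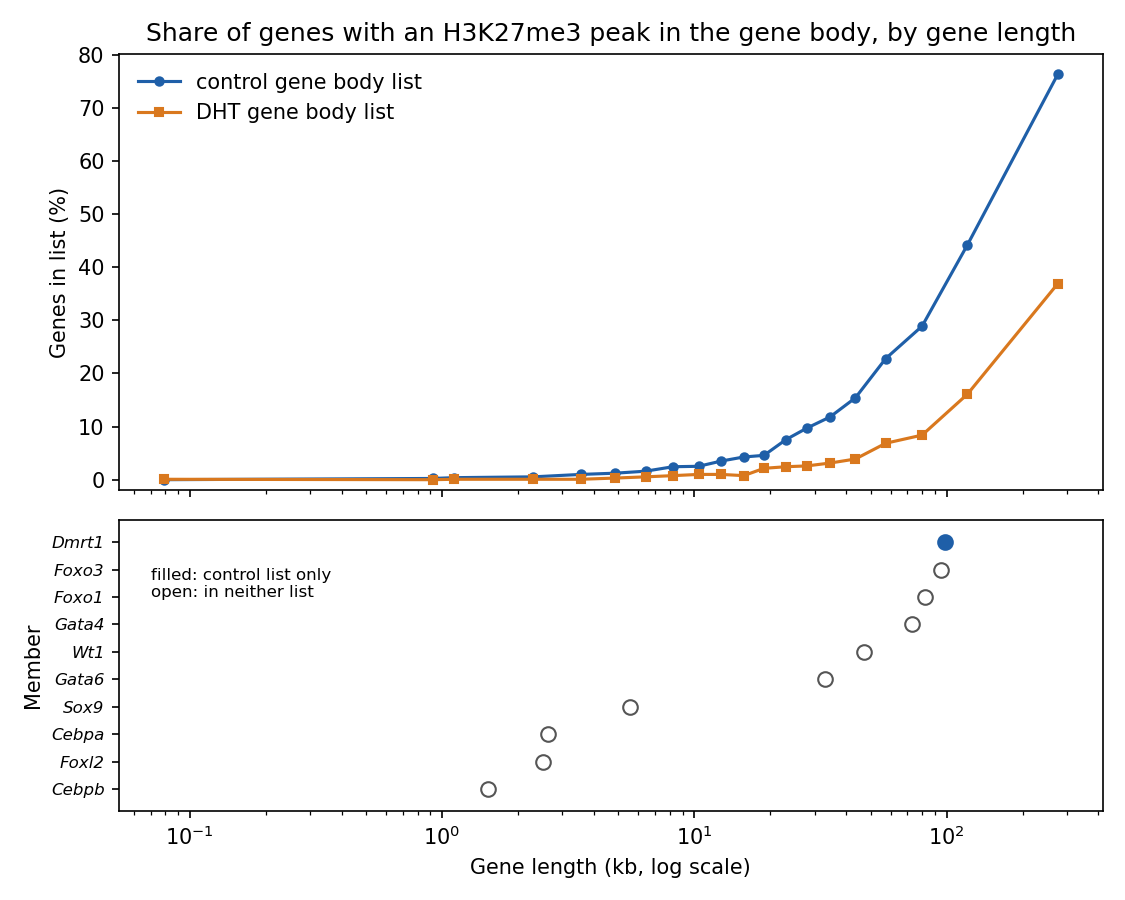
The upper panel plots the share of genes (%) in the control and DHT gene body lists against the median gene length (kb, log scale) of 20 classes holding 1311 genes each. The lower panel places the 10 members on the same length axis, filled for the control list and open for neither list. The share rises with length to 76.3% in control and 36.9% after DHT in the longest class, and Dmrt1, the longest member, is the only filled point.

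An mm9 gene annotation was not used here, and the peaks are in mm9, so the peak of Dmrt1 was bounded from the peaks of its chromosome. Chromosome 19 held 305 control peaks and 94 DHT peaks. Of the control peaks, 20 (6.56%, 95% Wilson interval 4.28 to 9.91%, counting error only) overlapped a DHT peak by 1 bp or more. Because Dmrt1 was not listed after DHT, a control peak that lies wholly inside it must be one of the other 285. A peak that crosses an end of the gene could be any of the 305.

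These 285 peaks were weak to moderate. Their fold enrichment over the local background, as the peak caller gave it, ran from 2.92 to 5.29 with a median of 3.43. Their −log10 q-values ran from 1.34 to 5.13, and 179 of them (62.8%) were under 2. The strongest, in mm9 chromosome 19 from 14250641 to 14251103, was 463 bp wide. The weakest by fold enrichment, from 27275482 to 27276173, was 692 bp wide. By contrast, the strongest control peak with a DHT counterpart on this chromosome, from 23431734 to 23432211, reached 8.21-fold. A peak wholly inside Dmrt1 thus had at most 5.29-fold enrichment. The widest of the 285 peaks was 1961 bp, which would cover 1.99% of the length of Dmrt1.

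**Figure D2:**
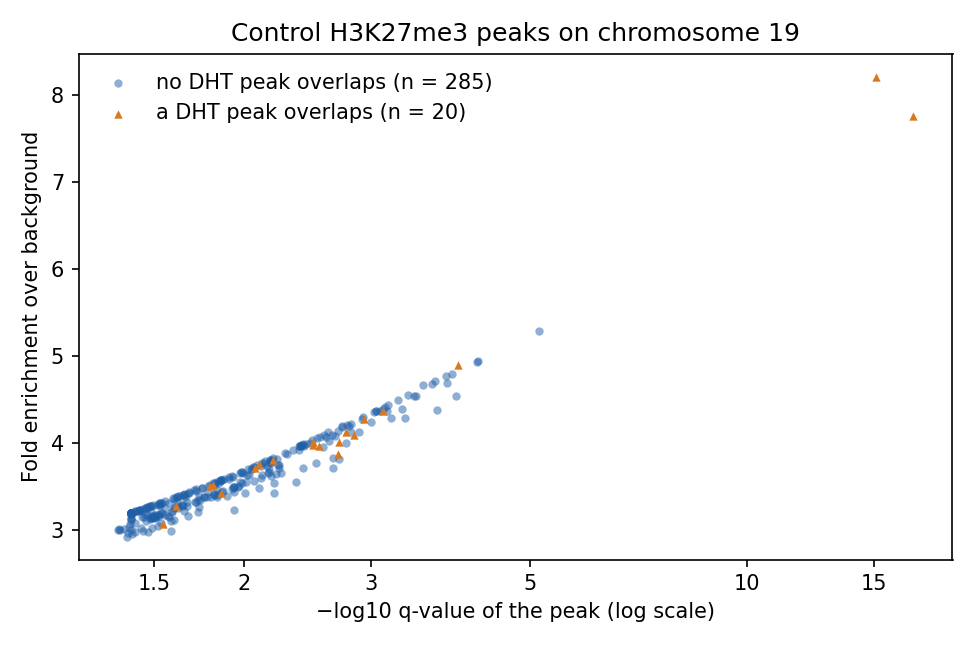
Each point is 1 control H3K27me3 peak on chromosome 19, placed by its −log10 q-value (log scale) and its fold enrichment over background. Circles are the 285 peaks without an overlapping DHT peak, which include any peak lying inside Dmrt1, and none exceeds 5.29-fold. Triangles are the 20 peaks with an overlapping DHT peak, 2 of which stand far above the rest.

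Of the 844 genes on chromosome 19, which carries Dmrt1, 77 (9.12%) were in the control list, 59 of these in the control list alone and 18 in both lists. Among its 149 genes of at least 50 kb, 54 (36.2%) were listed in control and 22 (14.8%) after DHT. Over the 9 chromosomes that carry the members, the control list held from 6.14% of genes, on chromosome 7 with Cebpa, to 23.1%, on chromosome 18 with Gata6. The number of DHT peaks per 100 control peaks ran from 20.1, on chromosome 3 with Foxo1, to 30.8, on chromosome 19. The median fold enrichment on these chromosomes lay between 3.43 and 3.49 in control and between 4.13 and 4.38 after DHT, where each pool has its own background.

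To describe the surroundings of the members, the 5 genes on each side of each were read from the order of genes in GRCm38. Of these 100 neighbours, the control gene body list held 12 (12%) and the DHT list 4 (4.0%), close to the shares of all genes. With protein-coding neighbours alone, an alternative chosen after seeing the data, the control list held 19 of 100 (19%), above the 13.6% of all protein-coding genes, and the DHT list 4. Of the first 100, only Pik3cb was in both, and 85 were in neither. None was in a promoter list. The 15 listed neighbours had a median length of 110.0 kb, and the other neighbours 16.5 kb.

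Dmrt1 lies in a cluster with its paralogues Dmrt3 and Dmrt2, and neither of these was in any list. Kank1, the gene before it, was not listed either. The nearest listed genes were Dock8, at the third place before Dmrt1, and Smarca2, at the fifth place after it, both in the control list alone. In gene order, the listing of Dmrt1 was thus not part of a run of listed genes. Dmrt3 (13.7 kb) and Dmrt2 (6.62 kb) are short, and 3.51% and 1.6% of their length classes were listed in control. Kank1, at 198.0 kb, is in the longest class, where 76.3% were. Peaks between genes were not placed, so a run of peaks there would not be seen.

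Around the forkhead genes, the control list held Maml3 and Rab33b near Foxo1, and Sesn1, Armc2 and Snx3 near Foxo3. MAML3 is a coactivator of Notch signaling, and SESN1 is a stress-induced inhibitor of the mTORC1 pathway. Near Foxl2, Pik3cb, which encodes a catalytic subunit of PI3K, was in both lists, while the adjacent noncoding gene Foxl2os was in none. Gata4 and Cebpa had 0 listed neighbours of 10. Near Gata6 only Mib1 was listed, in control. Gata6os, which overlaps Gata6, was in no list.

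Near Wt1, Ccdc73 and the adjacent gene Them7 were in the control list, and Wt1os was in none. The genes listed only after DHT were near Cebpb (Ripor3) and near Sox9 (2610035D17Rik and Slc39a11). Kcnj16, a potassium channel gene on the other side of Sox9, was in the control list alone.

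**Figure D3:**
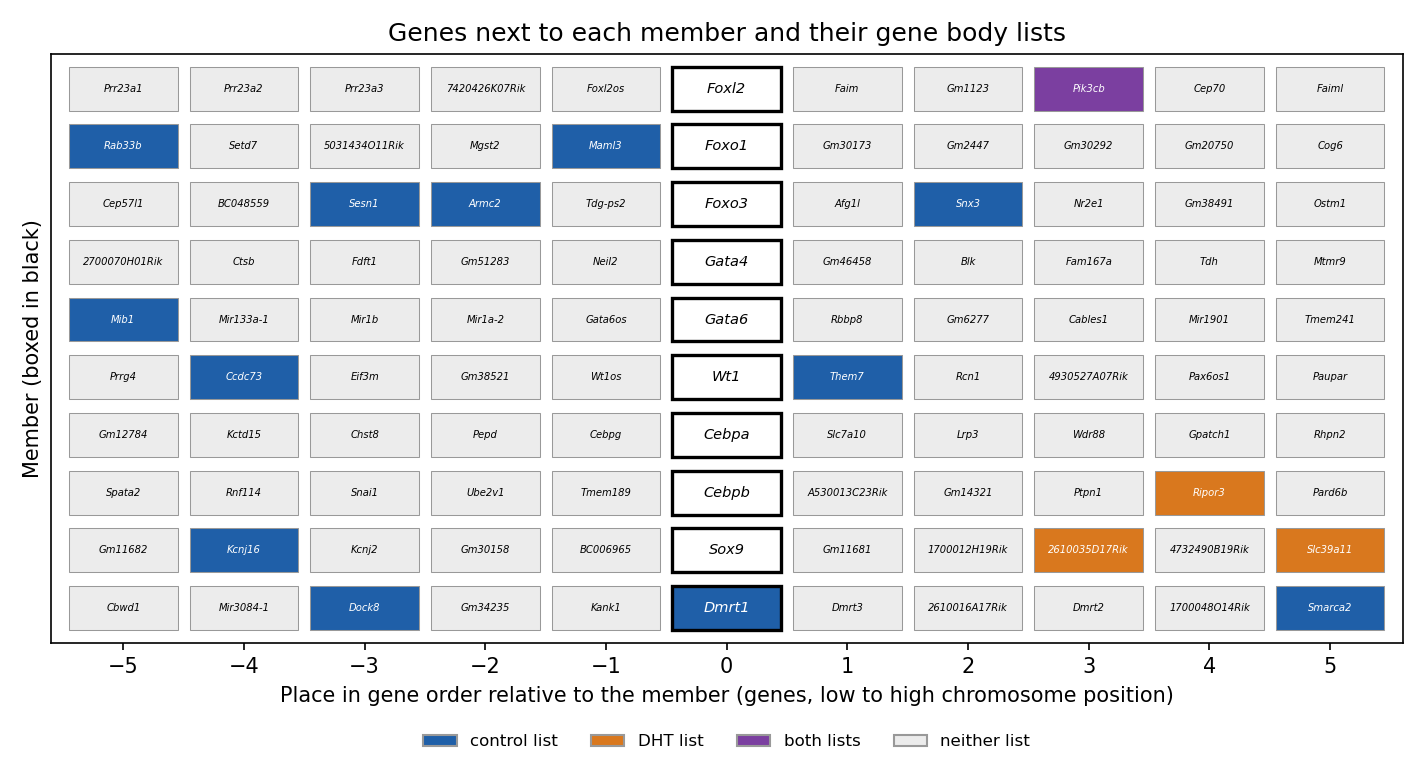
Each row shows 1 member, boxed in black, with the 5 genes before and after it in chromosome order. Fill colour gives the gene body list (control, DHT, both or neither). Of the 100 neighbours 85 are in neither list, the rows of Gata4 and Cebpa are empty, and both genes beside Dmrt1 are unlisted.

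The families of the members were then read in the same lists, where 11.9% of all genes were listed in control and 4.36% after DHT. Of 11 DMRT genes, Dmrt1 alone was listed. Of 44 forkhead genes, 3 were in the control list, Foxn3, Foxp1 and Foxp2, and the first 2 of these were in the DHT list as well. Of 20 SOX genes including Sry, Sox5 and Sox6 were listed, each in both groups. SOX5 and SOX6 are cofactors of SOX9 in cartilage. None of 7 C/EBP genes was listed. Among 9 GATA genes and cofactors, only Zfpm2 was listed, in both groups. It encodes FOG2, the partner of GATA4 in the gonad. Listed genes of these families were long, from 374.0 to 954.0 kb apart from Dmrt1, whereas the median length was 5.19 kb for the forkhead and 4.79 kb for the SOX family.

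Among 30 further genes of granulosa cell and ovarian fate, the control list held 8 (26.7%) and the DHT list 5 (16.7%). The shares of all genes were 11.9% and 4.36%. These 30 genes had a median length of 23.4 kb, beside 14.3 kb for all genes, and whether length accounts for the counts was not tested. Esr1, Fshr, Lgr5 and Zfpm2 were in both. Cyp19a1 (aromatase), Kitl (the ligand of KIT on the oocyte), Runx1 and Smad3 were in control alone, and Nr5a2, which encodes the nuclear receptor LRH-1, was in the DHT list alone. The 9 listed genes had a median length of 137.0 kb and the other 21 a median of 10.7 kb. Rspo1, Wnt4, Fst and Esr2, which act in ovarian development or follicle growth, were in no list.

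Of 28 genes of testis and Sertoli cell fate, 2 (7.14%) were in the DHT list, Tesc and Hsd17b3, and Tesc was in the control list as well. HSD17B3 makes testosterone from androstenedione in the testis. Sry, Sox8, Sox10, Fgf9, Amh and Dhh were in no gene body list. Mro was in the authors' list of downregulated genes linked to an enhancer. Among markers of other ovarian cells, 2 of 12 theca and stroma genes (Dcn and Lhcgr) were in the control list and 0 after DHT. Lhcgr, the receptor of luteinizing hormone, was also in both of the authors' lists for upregulated genes, the one by gene body peaks and the one by enhancers. Of 10 immune and endothelial genes 4 were listed in control (Emcn, Pecam1, Ptprc and Tek), and Pecam1 and Ptprc after DHT as well. For comparison, the control list held 11.9% of all genes and the DHT list 4.36%. The immune and endothelial genes had a median length of 53.7 kb, beside 14.3 kb for all genes. Whether length accounts for their count was not tested. None of 10 oocyte genes was listed. These are calls of the mark, not of expression, and the share of other cells in the cultures was not tested.

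Promoter sequence was available for 5 members from the RefSeq promoters of GRCm38.p6, which span 250 bases before to 50 after the start site. The 2 promoters with the fewest and the most CpG dinucleotides in that 300-base window are shown without the transcribed bases, 5′ to 3′, with each CpG in capitals. In the 250 bases shown, Foxl2 held 22 CpG, while Foxo1, which is not shown, held 20. CpG-rich promoters are the usual places where Polycomb complexes gather.
Foxl2 (GRCm38.p6 chr9:98955357-98955606, plus strand): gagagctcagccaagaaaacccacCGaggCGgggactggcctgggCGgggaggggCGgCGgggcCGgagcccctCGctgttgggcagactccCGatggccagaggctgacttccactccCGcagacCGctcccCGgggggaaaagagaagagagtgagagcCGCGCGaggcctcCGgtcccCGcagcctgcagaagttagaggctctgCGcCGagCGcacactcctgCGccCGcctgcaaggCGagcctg
Cebpb (GRCm38.p6 chr2:167688665-167688914, plus strand): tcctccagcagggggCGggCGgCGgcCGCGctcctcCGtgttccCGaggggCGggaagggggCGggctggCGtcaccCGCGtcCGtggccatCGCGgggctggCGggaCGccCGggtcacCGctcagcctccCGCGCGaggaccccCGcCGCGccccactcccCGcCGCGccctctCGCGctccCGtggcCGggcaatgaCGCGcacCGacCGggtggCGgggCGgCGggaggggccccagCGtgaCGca

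In the 300-base windows, Foxl2 held 27 CpG, Cebpa 29, Foxo1 31, Foxo3 35 and Cebpb 50. All 5 were at or above the 80.3rd percentile of 19528 promoters, whose median was 12 CpG. None of these CpG-dense promoters was in a promoter list. As those lists held only 0.603% of all genes in control and 0.206% after DHT, the absence of 5 genes shows nothing particular to them. The 117 genes of the control promoter list with a sequence had a median of 6.0 CpG and the 38 of the DHT promoter list a median of 8.0. Of the control promoter list 13.7% had at least 27 CpG, compared with 19.7% of all promoters.

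**Figure D4:**
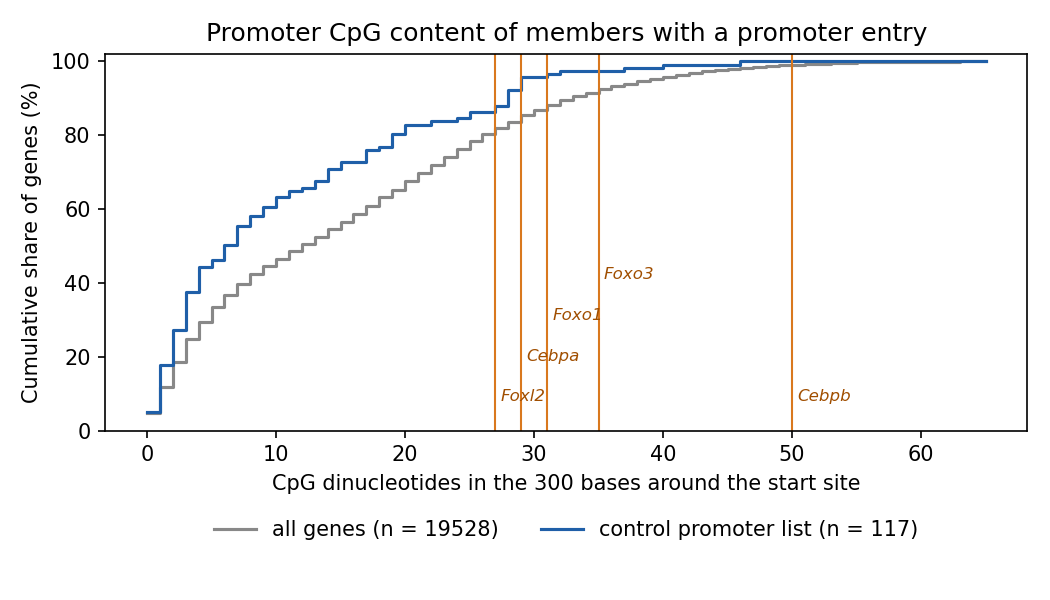
The cumulative share of genes (%) is plotted against the number of CpG dinucleotides in the 300 bases around the start site, for 19528 genes and for the 117 genes of the control promoter list. Vertical lines mark the 5 members with a sequence. The members run from 27 (Foxl2) to 50 (Cebpb), to the right of most genes of the list, whose median is 6.0.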

How the data were processed

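Per the labels, reads of 6 H3K27me3 ChIP-seq samples were mapped to mm9 with Bowtie2 2.3.4, and the authors kept uniquely mapped reads and called broad peaks with MACS2 2.1.1 at a q-value of 0.05 or less, 1 list per group. How replicates were combined is not given in the sources used here. Each deposited peak carries a score, a fold enrichment (a ratio to the local background of its pool), a −log10 q-value, and a p-value that was not used here. The authors' other lists are gene symbols, derived with an annotation whose release is not given in the sources used here.

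From these lists, symbols were matched to GRCm38.p6 RefSeq genes with a curated transcript, with older symbols mapped to current ones (3133 of 3144 in the control and 1142 of 1146 in the DHT gene body list). That assembly gave names, order and lengths of genes and promoter sequence, and no peak was placed on it. As an mm9 annotation was not used, peaks within 50 kb of the members were not analysed here. Where a gene had several promoters in the table, the first was taken. Lengths can differ from those in the annotation of the authors. Peak overlap, checked on made-up intervals, used pandas 2.3.3, numpy 2.4.6 and scipy 1.17.1 under Python 3.11.15, and plots used matplotlib 3.10.9. Alternatives were exact symbols, protein-coding genes, gene length, 3 or 10 neighbours, stricter q-values and a reciprocal overlap of 50%. Named were all members, listed genes of the related lists and listed neighbours, plus the strongest and weakest peaks of chromosome 19. The control count of the testis and Sertoli cell list is not reported here. Unlisted genes, and values other than these, were named after their status was seen. The members and lists were chosen with earlier results of these data known. The depth per sample is unknown, and intervals cover counting error only.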

Additional observations from a re-analysis of the deposited data

How the results depend on the processing

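No paired analysis was possible because each group has 1 pooled list without a value per replicate, which also kept fits without each replicate from being run. The count of listed members (1 in control and 0 after DHT) was the same with exact symbols and without regard to case. The shares of neighbours in the lists stayed within their 95% Wilson intervals with 3 or 10 neighbours. The same held with protein-coding neighbours alone, an alternative chosen after seeing the data. There the control share was 19% beside 12%, within the interval, and the DHT share was 4.0% in both. The share of all genes in the list, against which the members were read, moved most. In control it was 11.9%, and 13.6% of protein-coding genes. Among genes within 2-fold of the length of a member it was 0.813% for Foxl2, 28.7% for Foxo1, 32.6% for Foxo3, 25.5% for Gata4, 16.7% for Wt1, 0.813% for Cebpa, 0.412% for Cebpb, 1.68% for Sox9 and 33.8% for Dmrt1. For DHT it was 4.36%, 4.96% of protein-coding genes and, by length in the same order with Gata6 (3.37%) added, 0.0508%, 9.17%, 10.6%, 7.97%, 4.73%, 0.0985%, 0.0549%, 0.514% and 11%. On chromosome 19, 121 control peaks met a q-value limit of 0.01 and 31 a limit of 0.001, which 33 DHT peaks met. Of the 20 control peaks with a DHT peak, 11 met a reciprocal overlap of 50%, and 3 control peaks had a DHT peak where both lists were held to a limit of 0.001. Whether the peak of Dmrt1 would pass a stricter limit cannot be read from the lists. The unknown depth of each pool limits what a gene's absence from a list can show.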
